A study of Mus musculus with 2 samples.

Results

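Chemokine ligands, the small secreted proteins that draw leukocytes into tissue, were followed here together with a few stromal cytokines and the NF-kB regulators that are read out beside them. The set was every gene symbol of the Ccl or Cxcl form followed by a number, to which Cx3cl1, Il6, Lif, Il33, Csf1, Nfkbia, Nfkbiz, Nfkb1 and Tnfaip3 were added. It came to 45 genes, 36 of them Ccl or Cxcl genes and 9 named singly, out of 32246 gene symbols in the count matrices. Of the 45, 37 had at least 1 UMI (unique molecular identifier, a count of 1 captured transcript) in the cells analysed. The other 8, namely Ccl1, Ccl9, Ccl20, Ccl21b, Ccl21c, Ccl26, Ccl27b and Cxcl15, had none in 28230354 UMIs of Paqr4 transgenic cells or in 28418301 UMIs of WT cells. Ccl21b, Ccl21c and Ccl27b have near-identical copies in the genome, so a count of 0 for them is uncertain.

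In white fat, adipocyte progenitors are fibroblast-like cells that give rise to fat cells and also secrete chemokines. CC ligands such as Ccl2 and Ccl7 act on Ccr2 of monocytes, Ccl11 acts on Ccr3 of eosinophils, Cxcl1 and Cxcl2 act on Cxcr2 of neutrophils, and Cxcl9 and Cxcl10 act on Cxcr3 of T cells. Cxcl12 binds Cxcr4 and retains blood progenitors and B cells in stroma. NF-kB, of which Nfkb1 encodes a subunit, drives many of these genes and also its own brakes Nfkbia and Tnfaip3.

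The 2 libraries were droplet single-cell RNA-seq of the stromal vascular fraction of mouse subcutaneous white fat, sorted for cells without CD45, the surface protein of blood cells. One library was Paqr4 transgenic and the other was WT. Paqr4 encodes a membrane protein of the progestin and adipoQ receptor family. The labels do not name the promoter or the cell type of the transgene, the age or the sex, and the series text gives 3 pooled mice without saying whether that is per genotype. With 1 library for each genotype, nothing below is a test between genotypes. Levels are in UPM, UMIs per 1000000 UMIs of the cell class, and the intervals are 95% intervals that cover counting error only.

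The analysis kept 1521 Paqr4 transgenic and 1328 WT cells, with median depths of 18711 and 21612.5 UMIs. No barcode was shared between them. Paqr4 stood at 9.57 UPM in Paqr4 transgenic progenitors and 7.46 UPM in WT progenitors, a log2 ratio of 0.36 (0.08 to 0.64). The 2 libraries were of different sex by Xist, the X-inactivation transcript, which was seen in 0.222% of Paqr4 transgenic and 94.1% of WT progenitors, so genotype and sex cannot be told apart in any comparison of the libraries. The 45 genes were left out when cells were clustered, so that no cluster was built on them.

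Adipocyte progenitors, which carried all 8 of the progenitor markers in every such cluster, numbered 1350 in the Paqr4 transgenic library and 1091 in the WT library and formed 6 clusters. Cluster 1 was Procr-like (282 and 318 cells, led by Adamts4 and Tfpi2), cluster 2 Icam1-like (367 and 149 cells, led by Dchs2 and G0s2) and cluster 3 Dpp4-like (186 and 234 cells, led by Pi16 and Sema3e). Cluster 4 was F3-like (229 and 138 cells, led by C7 and Plcxd3) and cluster 6 Itgbl1-like (122 and 55 cells, led by Pde4c and Itgbl1). Cluster 5 (164 and 197 cells, led by Ankrd55 and Ppp2r2b) matched no subclass. Cluster 3 also carried 5 of the 8 Procr-like markers. Cluster 7, blood endothelial cells, held 80 Paqr4 transgenic and 95 WT cells and carried all 11 of its markers. Clusters 8 (pericyte and Tenm4- and Robo2-expressing progenitor genes together) and 9 (red-cell and progenitor genes together) were mixed and are not named. Macrophage markers summed to 3.43 UPM in Paqr4 transgenic and 3.31 UPM in WT progenitors, and neutrophil markers to 0.0763 and 0.12 UPM. Cells with blood markers had been set aside before, so these sums were low by construction. Over all cells, those set aside included, macrophage markers summed to 10.6 UPM in the Paqr4 transgenic and 4.43 UPM in the WT library. Neutrophil markers summed to 0.0708 and 0.176 UPM. Few of the myeloid cells that are the usual targets of these ligands were thus among the cells analysed.

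Which class was the source of each gene was read in 8 classes that had at least 20 cells in each library, clusters 1 to 7 and 9. In these, 24 of the 45 genes reached 10 UPM, and 18 of the 24 were highest in the same class in both libraries. The same count over all genes was not made, so 18 of 24 is not read as particular to this set. For 17 of the 18 the margin over the next class exceeded counting error in both libraries, the exception being Ccl19. The margin was 1.5-fold or more in both libraries for 6 genes, Cxcl10, Cxcl13, Cxcl14, Cx3cl1, Il6 and Tnfaip3. The 6 progenitor clusters held 92.9% of all UMIs of Paqr4 transgenic cells and 88.2% of those of WT cells. The share of a gene's UMIs in progenitors was above that base for 18 of the 24 genes in the Paqr4 transgenic library and for 16 in the WT library, with Ccl2 at 99.3% and 98.3%. It was below the base in both libraries for Ccl5, Ccl25, Cxcl9, Cxcl12, Cxcl14 and Cx3cl1, and was lowest for Cx3cl1, at 55.8% and 31.8%. Cxcl14 stood at 85.7% and 44.6%, and Cxcl9 at 80.7% and 71.2%. The Procr-like cluster 1 was highest for 10 genes, the Dpp4-like cluster 3 for 3, the F3-like cluster 4 for 2, the Icam1-like cluster 2 for 1 and blood endothelial cells for 2.

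**Figure D1:**
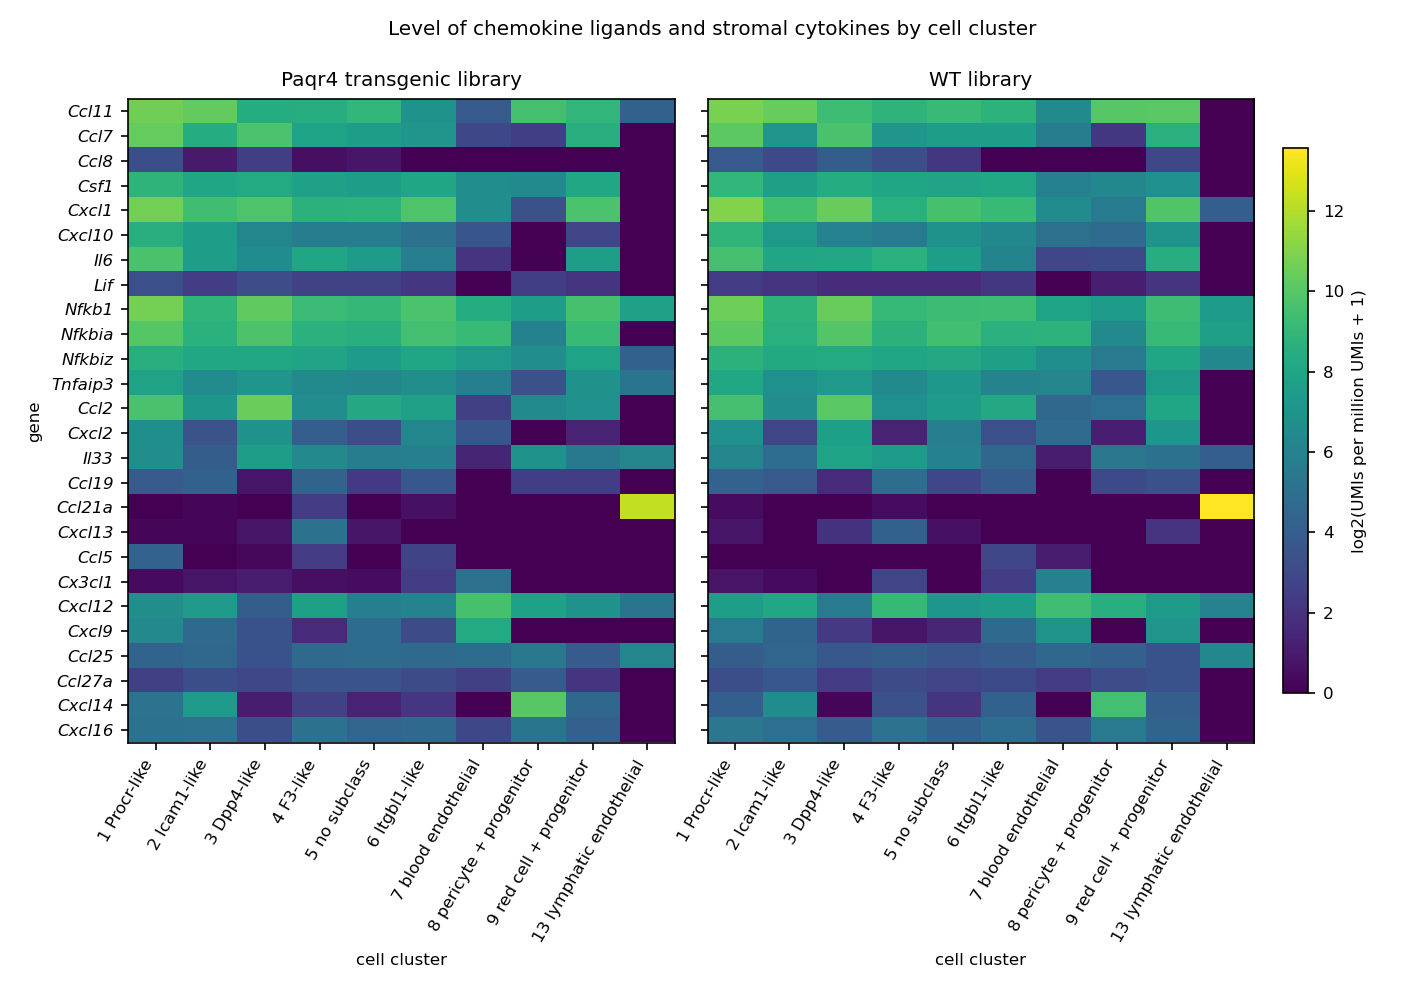
Levels of 26 genes (rows) in 10 cell clusters (columns) of the Paqr4 transgenic library (left) and the WT library (right), as log2(UPM + 1). In both panels the column of cluster 1 is highest for Il6 and Cxcl10, cluster 3 for Ccl2, cluster 7 for Cxcl12 among clusters 1 to 7, cluster 8 for Cxcl14 and cluster 13 for Ccl21a.

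The Procr-like cluster 1 was highest in both libraries for Ccl7, Ccl11, Cxcl1, Cxcl10, Il6, Csf1, Nfkbia, Nfkbiz, Nfkb1 and Tnfaip3. Il6, the cytokine that signals through Il6st, stood at 817 UPM (795 to 841) in Paqr4 transgenic cells of cluster 1 and 754 UPM (735 to 773) in WT cells of cluster 1. The next class was cluster 4 in both, at 261 UPM in the Paqr4 transgenic library and 399 UPM in the WT library, so the margin was 3.13-fold and 1.89-fold. Cxcl10, an interferon-inducible ligand of Cxcr3, stood at 360 UPM in Paqr4 transgenic and 465 UPM in WT cells of cluster 1, against 186 and 157 UPM in cluster 2. Taken as a whole, cluster 1 thus led for both an acute-phase cytokine and an interferon-inducible chemokine. Its leading genes also included the interferon-inducible Ifit1. At resolution 1.0 a cluster led by Ifit1 and Tfpi2 (83 Paqr4 transgenic and 189 WT cells) was apart from one led by Rnd1 and Ptx3 (88 and 86 cells). Whether the same cells carried Il6 and Cxcl10 was not tested.

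Cxcl1, a neutrophil attractant, stood at 1619 UPM in Paqr4 transgenic and 1993 UPM in WT cells of cluster 1, and its lowest progenitor level was in cluster 4, at 411 and 384 UPM. Ccl11, which encodes eotaxin, was spread over 2 clusters: 1560 and 1836 UPM in cluster 1 and 1255 and 1334 UPM in cluster 2. Csf1, the growth factor of macrophages, differed less between progenitor clusters, with 456 UPM in Paqr4 transgenic and 507 UPM in WT cells of cluster 1 and 195 UPM as the lowest level of a progenitor cluster. Nfkbia, which holds NF-kB in the cytoplasm, led in cluster 1 by only 1.14-fold in either library, with cluster 3 next.

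The profiles of several of these genes ran together over the 16 combinations of class and library. Pearson's r of log2(UPM + 1) was 0.92 for Ccl2 with Ccl7, 0.91 for Ccl11 with Il6 and 0.89 for Cxcl1 with Nfkbiz. Among 11308 genes, those most like Cxcl1 were Stx11 (r of 0.96), Tnfaip2 (0.94) and Gm16685 (0.94). Those most like Nfkb1 were Cd44, Stx11 and Stk40, and those most like Ccl11 were Col5a3, Khdrbs3 and Plekhf1, all with r of 0.92 or 0.93. These are descriptions over 16 points that share 2 libraries.

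The promoters of 6 of these genes are shown because they hold one sequence form in common, and 5 of the 6 genes had cluster 1 as their highest class. RefSeq promoter windows were found for 32 of the 45 genes. The letters GGG, any 2 bases and then TTTCC, a strict form of the NF-kB binding sequence read on both strands, were in 9 of these 32 genes within 250 bases before the start (Ccl9, Ccl20, Csf1, Cxcl1, Cxcl2, Cxcl3, Il6, Nfkbia and Tnfaip3). They were in 1.41% of all 32851 windows of that length. The 32 genes had 40 windows, so a count by gene and a share by window are not alike. NF-kB regulators were also in the set by name. Another form, TTTC, any 2 bases and TTTC, was in 3 of the 32 genes (Ccl19, Cxcl10 and Cxcl14) and in 2.98% of all windows. Of the 10 genes highest in cluster 1, 6 had a window and 5 of the 6 held the letters, Cxcl10 being the one that did not. Each line below gives the 160 bases before the RefSeq start on the strand of the gene (GRCm38.p6), 5′ to 3′, with the matching letters in capitals. The positions are chr5:90891085-90891244 (plus) for Cxcl1, chr5:90903739-90903898 (plus) for Cxcl2, chr5:30012954-30013113 (plus) for Il6, chr3:107760470-107760629 (minus) for Csf1, chr12:55492648-55492807 (minus) for Nfkbia and chr10:19015411-19015570 (minus) for Tnfaip3.
Cxcl1: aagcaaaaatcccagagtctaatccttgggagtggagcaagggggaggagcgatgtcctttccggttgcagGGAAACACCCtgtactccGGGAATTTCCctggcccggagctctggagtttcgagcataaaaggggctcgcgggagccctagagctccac
Cxcl2: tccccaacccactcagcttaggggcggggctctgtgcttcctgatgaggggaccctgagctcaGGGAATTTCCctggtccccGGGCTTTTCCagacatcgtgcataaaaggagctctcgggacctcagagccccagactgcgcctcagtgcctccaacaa
Il6: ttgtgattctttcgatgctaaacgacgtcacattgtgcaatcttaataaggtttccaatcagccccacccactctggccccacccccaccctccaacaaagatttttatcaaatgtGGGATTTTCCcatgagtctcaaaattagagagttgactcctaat
Csf1: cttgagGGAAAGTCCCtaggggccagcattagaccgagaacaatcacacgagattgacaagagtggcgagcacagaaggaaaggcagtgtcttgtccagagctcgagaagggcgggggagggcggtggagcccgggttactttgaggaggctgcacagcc
Nfkbia: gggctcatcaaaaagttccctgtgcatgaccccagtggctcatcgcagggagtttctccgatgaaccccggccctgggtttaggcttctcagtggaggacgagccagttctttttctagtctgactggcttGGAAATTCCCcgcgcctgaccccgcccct
Tnfaip3: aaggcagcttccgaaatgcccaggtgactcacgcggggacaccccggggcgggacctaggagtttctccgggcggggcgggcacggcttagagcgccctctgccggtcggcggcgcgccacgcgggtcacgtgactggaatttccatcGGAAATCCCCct

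Cxcl1 and Cxcl2 each held 2 matches, the nearest starting 71 and 78 bases before the start, and in Il6, Csf1, Nfkbia and Tnfaip3 the single match began 44, 154, 29 and 12 bases before it. A match is a description of these letters and not evidence of binding. Of the 4 other genes with the letters, Cxcl2 was highest in cluster 3, Cxcl3 had all 24 of its UMIs there, and Ccl9 and Ccl20 had no UMI in cells.

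The Dpp4-like cluster 3 was highest for Ccl2, Cxcl2 and Il33. Ccl2, the main monocyte attractant, stood at 1394 UPM (1359 to 1430) in Paqr4 transgenic and 1098 UPM (1072 to 1124) in WT cells of cluster 3, and the next class was cluster 1 at 798 and 747 UPM. Il33, a nuclear alarmin that activates innate lymphoid and regulatory T cells, stood at 194 and 230 UPM in cluster 3. Cxcl2 stood at 123 and 200 UPM there, but 42.3% of those UMIs in the Paqr4 transgenic library and 46.7% in the WT library came from the 5 cells that held most, so its level rested on few cells. Ccl2, Ccl7, Ccl11, Ccl12 and Ccl8 lie in this order within 81.2 kb of chromosome 11 (GRCm38, 82035571 to 82116799). Their levels differed widely along it: Ccl12 had 1 UMI in all Paqr4 transgenic cells and 0 in WT cells, while Ccl11 just before it had 23307 and 28309.

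The Icam1-like cluster 2 and the F3-like cluster 4 had few leading genes. Cxcl14, a chemokine of epithelia and fat whose receptor is debated, stood at 163 UPM in Paqr4 transgenic and 95.4 UPM in WT cells of cluster 2, and the class behind it was at 35.3 and 17.2 UPM. It was far higher in the mixed cluster 8, at 1034 UPM (902 to 1181) in 18 Paqr4 transgenic cells and 720 UPM (664 to 780) in 51 WT cells. At resolution 0.8 cluster 8 came apart. Cxcl14 then stood at 878 and 669 UPM in 17 and 43 progenitors led by Tenm4 and Robo2, and at 0 UMIs in 9 Paqr4 transgenic and 86 UMIs in 13 WT pericytes. The Tenm4- and Robo2-led progenitors thus stood above the larger cluster 2 in Cxcl14 level in both libraries, from only 17 cells in the Paqr4 transgenic one. The WT pericytes are given in UMIs only, so their level is not ranked against these progenitors. These progenitors are thus not shown to stand above pericytes in the WT library.

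Cxcl13, the B cell attractant, was nearly restricted to cluster 4, with 33.8 UPM there in the Paqr4 transgenic library and 17.4 UPM in the WT library and at most 3.26 UPM in any other class counted. Of all its progenitor UMIs, 93.8% in the Paqr4 transgenic library and 62.5% in the WT library came from 5 cells. Ccl19, a ligand of Ccr7, was highest in cluster 4 at 18.8 and 28.3 UPM, although in the Paqr4 transgenic library cluster 2 followed at 17.7 UPM, within counting error.

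Blood endothelial cells were the highest class for Cxcl12 and Cx3cl1 in both libraries. Cxcl12 stood at 793 UPM (724 to 867) in Paqr4 transgenic and 672 UPM (621 to 726) in WT endothelial cells. The F3-like cluster 4 was next in both, at 207 UPM (193 to 221) and 531 UPM (503 to 559), so the endothelial margin was 3.84-fold in the Paqr4 transgenic library and 1.27-fold in the WT library. Because endothelial cells were few, 82.5% of the Cxcl12 UMIs of Paqr4 transgenic cells and 81.5% of those of WT cells still lay in progenitors. Cx3cl1, the membrane-bound fractalkine, stood at 31.3 and 58.6 UPM in endothelial cells and at most 4.48 and 6.04 UPM in any progenitor cluster.

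Cxcl9 had no single source. In the Paqr4 transgenic library it was highest in endothelial cells at 315 UPM, ahead of cluster 1 at 81.8 UPM. In the WT library the mixed cluster 9 stood at 132 UPM, endothelial cells at 127 UPM and cluster 1 at 47.8 UPM. In endothelial cells 75.4% of the Cxcl9 UMIs in the Paqr4 transgenic library and 76.9% in the WT library came from 5 cells. At resolution 1.0, chosen after the data were seen, the endothelial cells fell into 2 clusters. The cluster led by Cd36 and Fabp4 held 274 UPM of Cxcl9 in 57 Paqr4 transgenic cells and 329 UPM in 28 WT cells. The cluster led by Emcn and Plvap held 456 UPM in 23 Paqr4 transgenic cells and 3.37 UPM in 67 WT cells. Cxcl12 was close to even over the 2, with 767 and 728 UPM in the Cd36-led and 883 and 638 UPM in the Emcn-led cells. Cx3cl1 stood at 25.5 and 19.4 UPM in the Cd36-led cells and at 51.5 and 82.5 UPM in the Emcn-led cells.

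Ccl21a, a Ccr7 ligand made by lymphatic vessels, was confined almost entirely to 6 lymphatic endothelial cells in each library, at 5048 UPM in the Paqr4 transgenic and 12031 UPM in the WT library. Those 12 cells held 284 of the 304 Ccl21a UMIs of Paqr4 transgenic cells and 766 of the 770 of WT cells. Ccl5, the T cell and platelet chemokine, rested on blood cells and few others: 99 of its 238 Paqr4 transgenic UMIs were in the 6 blood cells set aside, and 98.6% of those in progenitors were in 5 cells. The WT library held 8 Ccl5 UMIs in all. Lif, a cytokine of the Il6 family, stood at 9 UPM in Paqr4 transgenic and 4.31 UPM in WT cells of cluster 1 and lower in the other classes counted, and 13 of its 92 WT UMIs were in 1 mesothelial cell.

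Ccl25, Ccl27a, Cxcl16 and Ccl8 had no shared highest class. Ccl25, the thymic and intestinal chemokine, lay between 9.74 and 26.7 UPM in the 6 progenitor clusters of the Paqr4 transgenic library and between 10.8 and 20.5 UPM in those of the WT library. Cxcl16, a membrane-bound ligand of Cxcr6, lay between 8.58 and 34.2 UPM and between 14.3 and 40.5 UPM. The 11 remaining detected genes, Ccl3, Ccl4, Ccl6, Ccl12, Ccl17, Ccl22, Ccl24, Ccl28, Cxcl3, Cxcl5 and Cxcl17, had between 0 and 36 UMIs each in all Paqr4 transgenic cells and between 0 and 27 in all WT cells. Among them Cxcl5 was led by cluster 3 in the Paqr4 transgenic library at 7.42 UPM and by cluster 1 in the WT library at 2.54 UPM, and all but 1 of the 24 Cxcl3 UMIs were in WT cells of cluster 3.

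Between the libraries, 20 of the 45 genes reached 10 UPM in progenitors of either library. Their median log2 ratio of Paqr4 transgenic over WT was -0.27, beside 0.10 over all 8727 genes at that level, and 17 of the 20 lay below 0. Within clusters 1 to 6 the median was -0.15, 0.13, -0.25, -0.07, -0.27 and -0.22. In cluster 2, 12 of 20 genes lay above 0. Most differences were small. By the limit of 1.5-fold, 3 genes were lower, Cxcl12, Cxcl2 and Ccl8, where 1.84% of all genes were. By the same limit 2 were higher, Cxcl14 and Cxcl9, where 2.92% of all genes were. Ccl8 (3.13 and 10.0 UPM) passed the level filter only through the WT library, so its lower ratio of -1.68 is tied to the filter.

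**Figure D2:**
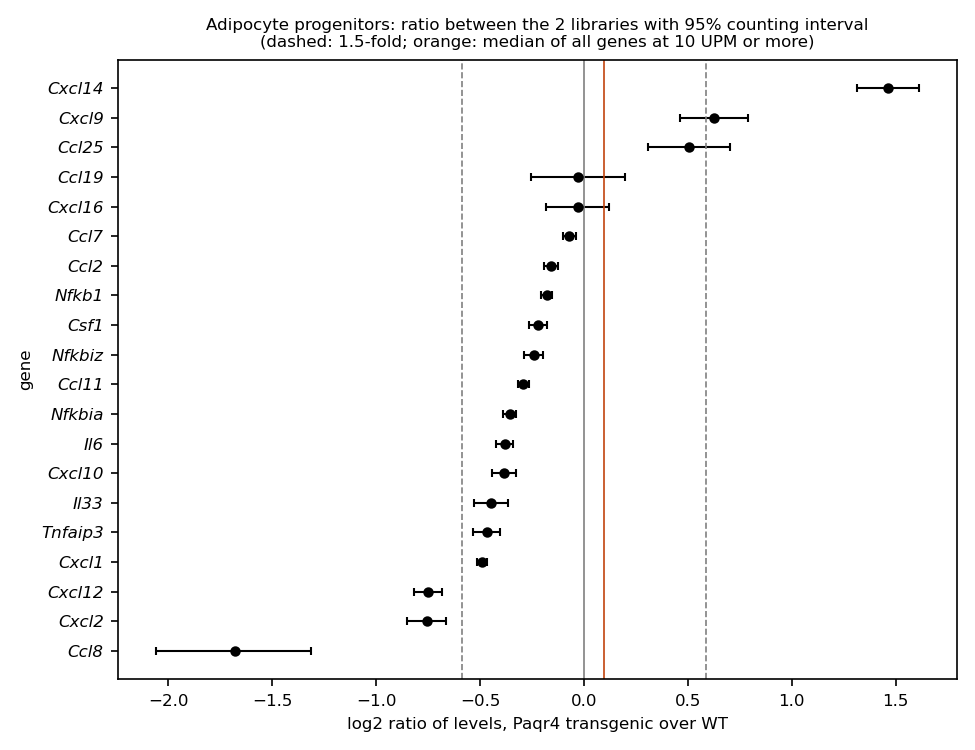
Log2 ratio of the level in Paqr4 transgenic over WT progenitors (x axis) for the 20 genes at 10 UPM or more in either library (rows), with 95% counting intervals. Dashed lines mark 1.5-fold and the orange line the median of all 8727 genes, 0.10. Ccl8, Cxcl2 and Cxcl12 lie left of the lower dashed line and Cxcl14 and Cxcl9 right of the upper one.

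Cxcl12 was the most even of these differences. It stood at 113 UPM (109 to 117) in Paqr4 transgenic progenitors and 191 UPM (185 to 196) in WT progenitors, a log2 ratio of -0.75 (-0.82 to -0.69). Its level was 104 against 186 UPM in cluster 1, 162 against 275 UPM in cluster 2 and 14.8 against 45.3 UPM in cluster 3 for Paqr4 transgenic against WT cells. In clusters 4, 5 and 6 it was 207 against 531 UPM, 54.97 against 137 UPM and 64.7 against 170 UPM. In all 6 clusters the Paqr4 transgenic level was thus below the WT level with intervals that did not meet.

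The log2 ratio of Cxcl12 lay between -1.61 in cluster 3 and -0.76 in cluster 2. The pooled ratio of -0.75 was thus smaller in size than that of any cluster. Clusters 2 and 4, the richest progenitor clusters in Cxcl12, held 27.2% and 17.0% of Paqr4 transgenic progenitors. They held 13.7% and 12.6% of WT progenitors. Of the 16 genes that reached 10 UPM in all 6 clusters, Cxcl12 was the only one lower by 1.5-fold or more in all 6. Per cluster, between 3.19% (cluster 1) and 12.3% (cluster 6) of all genes passed that limit downward. In blood endothelial cells of the same libraries the ratio was 0.24 (0.07 to 0.41), with the Paqr4 transgenic level above the WT one. In the Tenm4- and Robo2-led progenitors at resolution 0.8 it was -0.86, with 241 and 436 UPM. The 5 cells with most Cxcl12 held 5.89% of its UMIs in Paqr4 transgenic and 6.82% in WT progenitors, so the pooled levels did not rest on 5 cells. That share is not given for the single clusters. In barcodes of at most 50 UMIs, which hold free RNA, Cxcl12 stood at 85.4 and 114 UPM. Of its receptors, Cxcr4 had 1 UMI in the progenitors of each library and 14 and 15 UMIs in endothelial cells, and Ackr3 is its scavenger receptor. Ackr3 was higher in Paqr4 transgenic than in WT cells in all 6 progenitor clusters, with log2 ratios between 0.11 (cluster 3, 735 against 679 UPM) and 0.88 (cluster 6, 98.5 against 53.4 UPM) and intervals wholly above 0. Over all progenitors it stood at 299 and 309 UPM (-0.05), and cluster 3, where it was highest, held 13.8% of Paqr4 transgenic and 21.4% of WT progenitors.

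**Figure D3:**
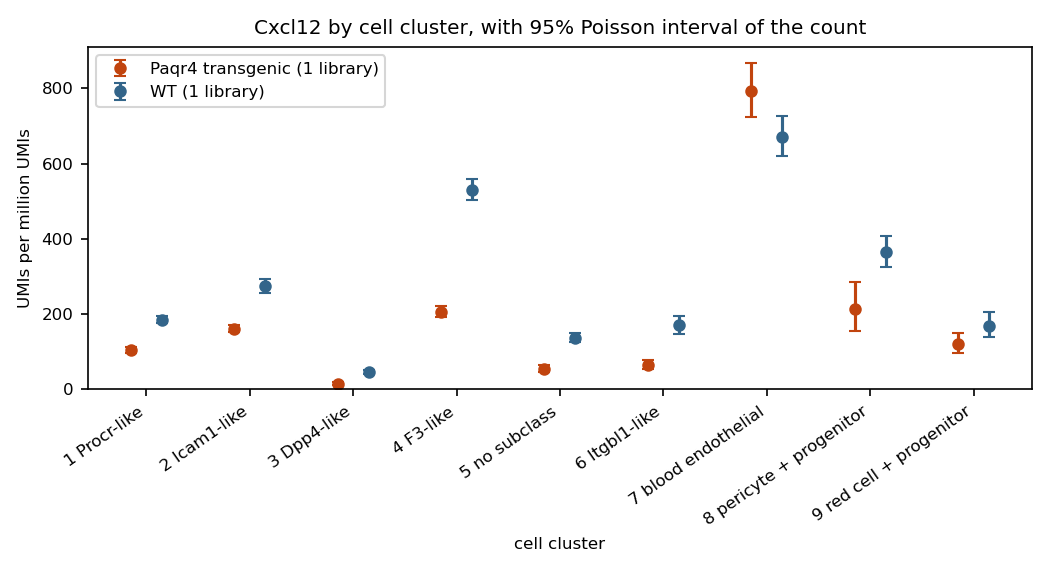
Cxcl12 level in UPM (y axis, from 0) in 9 cell clusters (x axis) of the Paqr4 transgenic library (orange, left of each pair) and the WT library (blue, right), with 95% Poisson intervals. The orange point is lower in clusters 1 to 6, by the most units in cluster 4 (207 against 531 UPM), and higher in endothelial cluster 7 (793 against 672 UPM).

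Other genes differed in direction from cluster to cluster. In cluster 1, 1 gene was lower by 1.5-fold or more and 3 were higher, where 3.19% and 4.56% of all genes were, and in cluster 2 the counts were 2 and 3, where 4.04% and 4.94% were. In cluster 3, 6 were lower and 0 higher, beside 4.36% and 7.30% of all genes, and these 6 were Ccl8, Ccl11, Cxcl2, Cxcl12, Cxcl16 and Il6. Cluster 4 had 4 lower and 4 higher, beside 6.23% and 7.55%, cluster 5 had 7 lower and 4 higher, beside 6.24% and 8.45%, and cluster 6 had 5 lower and 6 higher, beside 12.3% and 11.5%. For genes that passed the level filter in 1 library only, the filter fixed the direction of the ratio but not a difference of 1.5-fold. They made up 1 of the 4 counted in cluster 1 (Ccl5), 1 of the 5 in cluster 2 (Cxcl2) and 2 of the 6 in cluster 3 (Ccl8 and Cxcl16). In cluster 4 they were 1 of the 8 (Cxcl2), in cluster 5 they were 3 of the 11 and in cluster 6 they were 3 of the 11. Of the 16 genes measured in all 6 clusters, 12 had an interval wholly above 0 in at least 1 cluster and wholly below 0 in another, and besides Cxcl12 only Ccl11 was lower in all 6. The same counts over all genes were not made, so these patterns are not read as particular to this set. Ccl11 stood at 120 against 429 UPM in Paqr4 transgenic against WT cells of cluster 6 and at 335 against 645 UPM in cluster 3, but at 1255 against 1334 UPM in cluster 2. Its log2 ratio over all progenitors was -0.29 and over the clusters ran between -1.83 and -0.09. In cluster 6, 5 cells held 45.5% of its Paqr4 transgenic and 54.2% of its WT UMIs. Pde4c and Itgbl1 both led cluster 6, but at resolution 0.8 they led separate clusters. These held 30 and 108 Paqr4 transgenic and 40 and 31 WT cells. Ankrd55 and Lsamp, both leading genes of cluster 5, led separate clusters at resolution 1.0, with 125 and 19 Paqr4 transgenic and 98 and 121 WT cells. Xist, which differed between the libraries by sex, was also among the leading genes of the Lsamp-led cluster. Whether that split followed the library more than the cell state was not tested. The part of such cell mixtures in the ratios of clusters 5 and 6, here and below, was not tested.

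Ccl2 and Ccl7 were slightly lower over all progenitors (log2 ratios of -0.16 and -0.07) and yet higher in 4 of the 6 clusters each, with intervals wholly above 0. Ccl7 stood at 333 against 132 UPM in cluster 2 for Paqr4 transgenic against WT cells, a log2 ratio of 1.34, and Ccl2 at 286 against 178 UPM in cluster 5, a log2 ratio of 0.69. The clusters richest in both, 1 and 3, made up 20.9% and 13.8% of Paqr4 transgenic progenitors and 29.1% and 21.4% of WT progenitors. When each cluster was given the same weight, the ratios of Ccl2, Ccl7 and Nfkb1 were 0.22, 0.23 and 0.07. Aldh1a2 and Hsph1 were among the leading genes of cluster 2. At resolution 0.8 they were among those of a separate cluster led by Saa3, with 140 Paqr4 transgenic and 28 WT cells. The part of such a cell mixture in the Ccl7 ratio of cluster 2 was not tested.

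Il6 was lower over all progenitors, at 317 against 414 UPM in Paqr4 transgenic against WT cells (log2 ratio of -0.38), but at 0.03 with separate clustering of the libraries. It was 96.0 against 276 UPM in cluster 3 (-1.53) and 261 against 399 UPM in cluster 4 (-0.61), but 817 against 754 UPM in cluster 1, where it was highest (0.12). Cxcl1 was lower at 881 against 1238 UPM over all progenitors (-0.49) and lower in clusters 1, 3 and 5, while in cluster 6 it was 902 against 573 UPM (0.66). Il33 was 81.3 against 111 UPM over all progenitors (-0.45), with 82.4 against 165 UPM in cluster 4 and 102 against 71.3 UPM in cluster 1. The lower Il6 level was thus not seen in cluster 1, where Il6 was highest.

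**Figure D4:**
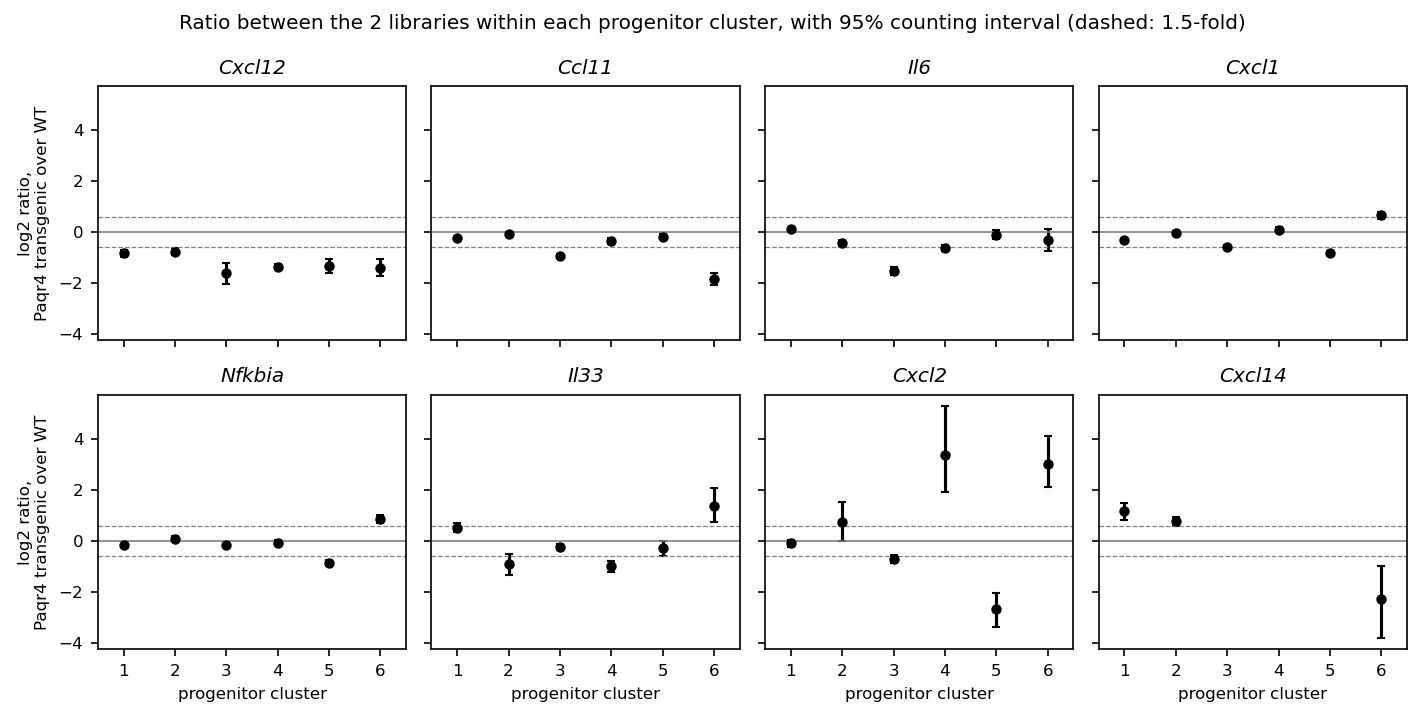
Log2 ratio of Paqr4 transgenic over WT (y axis) within each of the 6 progenitor clusters (x axis) for 8 genes, with 95% counting intervals and dashed lines at 1.5-fold. A point is drawn where the level reached 10 UPM in either library. All 6 points of Cxcl12 lie below the lower dashed line, whereas Nfkbia, Il33, Cxcl2 and Cxcl14 have points on both sides of 0.

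The NF-kB regulators were each a little lower over all progenitors. Nfkbia was 639 against 819 UPM in Paqr4 transgenic against WT progenitors (log2 ratio of -0.36), Tnfaip3, a deubiquitinase that ends NF-kB signalling, 128 against 177 UPM (-0.47), Nfkbiz 277 against 328 UPM (-0.24) and Nfkb1 925 against 1048 UPM (-0.18). None of the 4 passed 1.5-fold, and with separate clustering of the libraries, which left 889 Paqr4 transgenic and 1137 WT progenitors, Nfkbia was at 0.03 and Nfkb1 at 0.20. Of 26 other NF-kB pathway genes, 23 reached 10 UPM, with a median log2 ratio of -0.06. Of these 23, 2 were lower by 1.5-fold or more, where 1.84% of all genes were, and none was higher, where 2.92% were. The 2 were Ptx3, a secreted pattern recognition protein, at 296 against 650 UPM, and Zfp36, an mRNA decay factor, at 1613 against 2426 UPM. Zfp36 is also in the list of dissociation and immediate early genes, where it was the 1 gene of 18 lower by that limit.

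The 18 genes of a list of dissociation and immediate early genes summed to 20750 UPM in Paqr4 transgenic and 22208 UPM in WT progenitors. The sum was lower in Paqr4 transgenic cells in clusters 1 to 5, by the least in cluster 3 (14672 and 15047 UPM, a log2 ratio of -0.04) and by the most in cluster 5 (18176 and 26577 UPM, -0.55). In cluster 6 it was higher, at 22404 and 17939 UPM (0.32). Nfkbiz and Tnfaip3 had the sign of this sum in all 6 clusters, and Nfkbia in 5, with 379 against 693 UPM in cluster 5 (-0.87) and 726 against 406 UPM in cluster 6 (0.84). Nfkbia went the other way in cluster 2, at 405 against 382 UPM (0.08), where the sum was 25030 and 27241 UPM. Nfkb1 had the sign of the sum in 3 clusters and was higher in clusters 1, 2 and 4 (0.14, 0.13 and 0.16), where the sum was lower. The part of the digestion of the tissue in these ratios was not tested.

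Cxcl14 and Cxcl2 depended on which cells were counted. Cxcl14 stood at 54.3 UPM in Paqr4 transgenic and 19.7 UPM in WT progenitors, a log2 ratio of 1.46 (1.31 to 1.61), but 52.7% of the WT UMIs came from 5 cells. With the Tenm4- and Robo2-led cells counted as progenitors at resolution 0.8 the ratio was 0.66, and with separate clustering of the 2 libraries it was -0.44. Within cluster 2 it was 0.77 and within the Tenm4- and Robo2-led cells 0.39. Cxcl2 was 56.7 against 95.8 UPM (-0.76), with 24.4% and 26.6% of UMIs in 5 cells and cluster ratios between -2.69 and 3.36, although in clusters 2, 4, 5 and 6 it passed the filter through 1 library alone. Its pooled ratio was -0.24 with separate clustering and -0.19 with equal weight for each cluster, neither past 1.5-fold. Cxcl9 was 30.7 against 19.9 UPM (0.62), with 50.6% of the UMIs in 5 Paqr4 transgenic cells and 50% in 5 WT cells. The Cxcl9 ratio was under 1.5-fold in 5 of the 19 alternatives, the lowest being 0.34 at 2000 UMIs per cell.

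In blood endothelial cells 16 of the 45 genes reached 10 UPM, and their median log2 ratio was -0.10, beside -0.03 over 9282 genes. Of the 16, 7 were lower by 1.5-fold or more, where 19.3% of all genes were, and 3 were higher, where 16.0% were. Cx3cl1 was among the lower ones, with 19 UMIs in Paqr4 transgenic and 56 UMIs in WT cells, a log2 ratio of -0.90 (-1.74 to -0.13). The Emcn- and Plvap-led cells that were richest in it made up 23 of the 80 Paqr4 transgenic and 67 of the 95 WT endothelial cells. For Ccl2, Ccl7, Ccl11, Cxcl10 and Cxcl2, also lower, at least 90.9% of the UMIs of either library came from 5 cells. Ccl2, Ccl7 and Cxcl16, the last of the 7, passed the filter through the WT library alone. The higher ones were Cxcl9, Csf1 at 104 against 61.7 UPM and Nfkbiz at 163 against 106 UPM. Nfkbia stood at 572 against 437 UPM (0.39) and the immediate early list at 10400 against 8028 UPM, both higher in Paqr4 transgenic cells, as in progenitor cluster 6 and opposite to the pooled progenitors. Nfkb1 was also higher (0.54), but Tnfaip3 was lower (-0.30), unlike in cluster 6 (0.63). Of the 26 other NF-kB pathway genes, 23 reached 10 UPM in endothelial cells. Of these, 11 were higher by 1.5-fold or more and 3 lower, where 16.0% and 19.3% of all genes were.

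The signalling chemokine receptors were little expressed in progenitors. Of 22 chemokine receptor genes 3 reached 10 UPM over all progenitors, all of them atypical scavenging receptors. Ackr4, which takes up Ccl19, Ccl21 and Ccl25, stood at 55.1 UPM in Paqr4 transgenic and 25.2 UPM in WT progenitors, a log2 ratio of 1.13 (0.99 to 1.26). Its ratio lay between 0.56 and 1.75 over the 6 clusters, with intervals wholly above 0, although in cluster 2 it passed the filter through the Paqr4 transgenic library alone. Ackr1, which binds both CC and CXC ligands, stood at 24.3 and 30.0 UPM over all progenitors (-0.31), but in cluster 1 it was 30.2 against 30.1 UPM and in cluster 3 56.6 against 57.0 UPM. In none of the 5 clusters where Ackr1 was counted did its interval leave 0, and clusters 1 and 3, where it was highest, held a smaller share of Paqr4 transgenic than of WT progenitors. Ackr3 is given above.

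The receptors of the cytokines were better expressed, and 5 of 7 genes reached 10 UPM. Lifr, which binds Lif, had the largest difference over all progenitors, at 120 against 145 UPM (-0.28). Within clusters Lifr was lower in all 6, with intervals wholly below 0, and by 1.5-fold or more in 3: it was 100.0 against 157 UPM in cluster 4, 68.3 against 106 UPM in cluster 5 and 32.3 against 157 UPM in cluster 6 (-2.28). Il1rap, the shared chain of the Il33 receptor, stood at 29.4 against 25.7 UPM (0.19), Il6ra at 121 against 137 UPM (-0.18) and Il6st, the signalling chain used by both Il6 and Lif, at 262 against 295 UPM (-0.17). Il6st was lower in all 6 clusters, with log2 ratios between -0.36 and -0.04, whereas Il1rap and Il6ra differed in direction between clusters.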

How the data were processed

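The authors deposited counts, unnormalised UMIs per gene and barcode for all barcodes, from a 10x 3′ kit per the series text. Cell Ranger 7.0.0 and mm10 are named in the submitters' processing notes, Cell Ranger 4 in the file headers. UMIs were summed by symbol. Cells needed 1000 UMIs, 500 genes and at most 10% mitochondrial UMIs. Scrublet called 5 of 2854 as doublets (0.175%), too few to show that the caller worked. The 8 cells with 5 or more of 30 blood markers were set aside, a limit chosen after seeing the data. Without the 45 genes, 2000 variable genes, 30 components and 15 neighbours were clustered by Leiden at resolution 0.5 (scanpy 1.11.5, leidenalg 0.10.2, Python 3.11.15). A cluster needed 50% of a class's markers, and at least 3.

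Class levels have exact Poisson intervals and ratios exact conditional binomial intervals (95%, counting error only, hence too small for genes carried by a few cells). The floor of 3 UMIs was 0.114 UPM in Paqr4 transgenic and 0.12 UPM in WT progenitors. Total depth was 43084906 UMIs in the Paqr4 transgenic and 44145257 UMIs in the WT library. Genes at 10 UPM or more in a class of either library were compared, and past 1.5-fold counted as lower or higher. From each list at most 4 genes are named, those with the largest ratio. The genes and lists were chosen with earlier results of these data known. Gene positions are from GENCODE M21 (GRCm38) and promoters from RefSeq. The interval code was tested on simulated data. Alternatives are given in the closing section.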

Additional observations from a re-analysis of the deposited data

Results flagged for a closer look

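With 1 library on each side no difference between clusters could be tested. The genes below are listed because the counting interval of the log2 ratio of Paqr4 transgenic over WT lay wholly past 1.5-fold upward in one progenitor cluster and wholly past 1.5-fold downward in another. Cxcl2 had ratios of 3.36 in cluster 4 and 3.01 in cluster 6 but -2.69 in cluster 5, from 63, 147 and 22 UMIs in the Paqr4 transgenic library and 4, 10 and 216 UMIs in the WT library, and 5 cells held at least 85.0% of each. Cxcl2 passed the 10 UPM filter in all 3 clusters only through the library in which it was high, so the direction of these ratios was fixed by the filter. Cxcl9 had 3.91 in cluster 5 and -1.66 in cluster 6, with all UMIs of both libraries in 5 cells, and it too passed in both clusters only through the library in which it was high. Cxcl14 had 1.16 in cluster 1 and 0.77 in cluster 2 but -2.30 in cluster 6, where it had 7 Paqr4 transgenic and 19 WT UMIs and passed only through the WT library.

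Il33 had 1.37 in cluster 6, from 113 and 24 UMIs, and -0.998 in cluster 4, from 334 and 436 UMIs. Nfkbia had 0.84 in cluster 6, from 1459 and 448 UMIs, and -0.87 in cluster 5, from 994 and 2763 UMIs. Leading genes of clusters 5 and 6 led separate clusters at finer resolutions, with unlike cell numbers in the libraries. The finer cluster led by Lsamp also had Xist among its leading genes. The part of such cell mixtures in these ratios was not tested. In the WT cells of cluster 6, which numbered 55, 5 cells held 54.2% of the Il33 UMIs and 36.4% of the Nfkbia UMIs.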

How the results depend on the processing

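No paired analysis was possible because each genotype had 1 library, and for the same reason no replicate could be left out. The count of genes with the same highest class, 18 of 24, was between 13 of 26 (resolution 1.0) and 20 of 20 (the 2 libraries clustered separately, where only 2 classes could be compared). The median log2 ratio in progenitors, -0.27, was below 0 under all 19 alternatives run. It was -0.20 at 5% mitochondrial UMIs, -0.21 at resolutions 0.8 and 1.0 and without sex-linked and differing genes in clustering, -0.18 without cluster 1 and for all genes with a UMI in both libraries, -0.17 with equal weight for each cluster and -0.059 with separate clustering. It was -0.36 when centred on the median gene and for genes at 50 UPM or more.

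Of genes lower by 1.5-fold or more, 3 in the main analysis, 1 was left with separate clustering and with equal weight, and 5 were counted over all genes with a UMI in both libraries. Of genes higher, 2 in the main analysis, 1 was left at 2000 UMIs, at resolution 0.3, with blood cells kept, when centred, when thinned to 5000 UMIs per cell, at 50 UPM, with equal weight and with separate clustering, and 8 were counted over all genes with a UMI in both libraries. Cxcl12 stayed lower by 1.5-fold or more under all 19, at between -1.29 and -0.71. Cxcl9 lost its 1.5-fold call at 2000 UMIs (0.34), at resolution 0.3 (0.41), with blood cells kept (0.55), when centred (0.53) and when thinned (0.58). Cxcl2 lost it with separate clustering (-0.24) and equal weight (-0.19), and Cxcl14 with equal weight (0.57). Cxcl14 was -0.44 and Il6 0.03 with separate clustering. That alternative left 470 of the 1350 Paqr4 transgenic progenitors without a class and counted 40 WT cells of cluster 8 as progenitors, so it compared other cells. Resolution 1.0, keeping blood cells and leaving out cluster 1 were chosen after seeing the data. Depth limits the endothelial ratios, and the 11 genes of few UMIs could not be placed.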
